A study of Hyphopichia burtonii with 8 samples.

Results

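The response of the yeast Hyphopichia burtonii to 1 M sorbitol was described by setting 2 libraries from cells in YPD with sorbitol against 2 from cells in plain YPD. A gene entered the comparison where it reached at least 1 FPKM (fragments per kilobase, a level per gene length and library depth) in at least 2 of these 4 libraries, and 5683 of the 6166 genes listed did so. Of the 483 others, 202 were listed at 0 in all 4 libraries and 60 reached 1 FPKM in 1 library. Every library came from strain KJJ43, a wild type from Nuruk, a Korean fermentation starter. Cells were brought to an OD600 of 0.6 in YPD (yeast extract, peptone and glucose), alone as the control or with 1 M sorbitol, and were kept there for 1 h, after which an amount equal to an OD of 5 was harvested for total RNA. The series also holds 2 libraries each from YPD with 1 M NaCl and with 1 M KCl, grown and harvested alike, and these are used here to estimate the spread and to compare sorbitol with the salts. No deletion or transgene is named for any group. The sources used here do not say whether the duplicates came from separate cultures, so a p-value reflects no more than the spread of these particular libraries, which may be technical.

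Sorbitol is a sugar alcohol that is used to raise the osmotic pressure of a medium without adding ions. In Saccharomyces cerevisiae and Candida albicans, loss of water and turgor activates the HOG (high-osmolarity glycerol) kinase cascade, which raises the synthesis of glycerol as a compatible solute, while the transcripts for making ribosomes commonly drop for a time and recover as cells adapt. A salt of the same molarity dissociates, so it exerts a higher osmotic pressure and also brings in cations and chloride. Gene symbols below come from the RefSeq annotation of another strain of the species and mostly follow genes of other yeasts, so the functions named are background from those relatives, S. cerevisiae and C. albicans.

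The 4 libraries were alike in coverage. Between 5624 and 5684 genes reached 1 FPKM in each, and the 10 most abundant genes held 12.9% to 14.6% of the summed FPKM. The sum was larger in sorbitol (1649003 and 1520928) than in YPD (1335005 and 1373405). The files hold no fragment counts. The spacing of low values put 1 fragment at 0.0383 and 0.0296 FPKM in YPD 1 and YPD 2 and at 0.0558 and 0.0411 in sorbitol 1 and sorbitol 2, for a gene with 1 kb of usable length, so sorbitol 1 was the shallowest of the 4 and values near 1 FPKM rested on few fragments. Across genes, which are not independent replicates, the log2 values correlated at r = 0.987 between the YPD libraries, at 0.985 between the sorbitol libraries and at 0.968 to 0.981 between the media. In bulk RNA from a culture, a change in the RNA of every cell and a change in the share of cells that hold a transcript cannot be told apart.

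Of the 5683 genes, 222 (3.91%) rose and 70 (1.23%) fell in sorbitol, 292 in all (5.14%), at an adjusted p under 0.05 (limma on log2(FPKM + 1), all 8 libraries in 1 model, Benjamini-Hochberg over the 5683 genes). At a raw (unadjusted) p below 0.05 there were 1436, of which 806 were higher and 630 lower. The raw p counts of the lists below are to be read beside these. The changes were of moderate size: 148 of the rises and 15 of the falls reached 1 log2 unit, and the median of all genes was -0.03. Genes for making ribosomes made up 50 of the 222 rises and proteasome genes 13 of the 70 falls, while 102 of the rises and 50 of the falls were in genes without a symbol. After quantile normalization there were 185 higher and 113 lower. In all 292 called genes the sorbitol and YPD libraries did not overlap, a state reached upwards by 27.0% and downwards by 29.4% of the genes tested. The counts depended on single libraries and on the libraries that gave the spread: 8 genes were called without YPD 1 (7 higher, 1 lower) and 7 without sorbitol 1 (7 higher, 0 lower), against 183 higher and 23 lower without YPD 2, 142 and 18 without sorbitol 2, and 71 and 12 without either NaCl library. With only the 4 sorbitol and YPD libraries in the model there were 19 and 1. The 292 estimates kept their sign without each of the 4 libraries in turn. That had to follow, because their libraries did not overlap, so it is no further support. Below, a bracket after a gene gives the libraries whose removal ended its call, with the largest adjusted p among those fits.

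**Figure D1:**
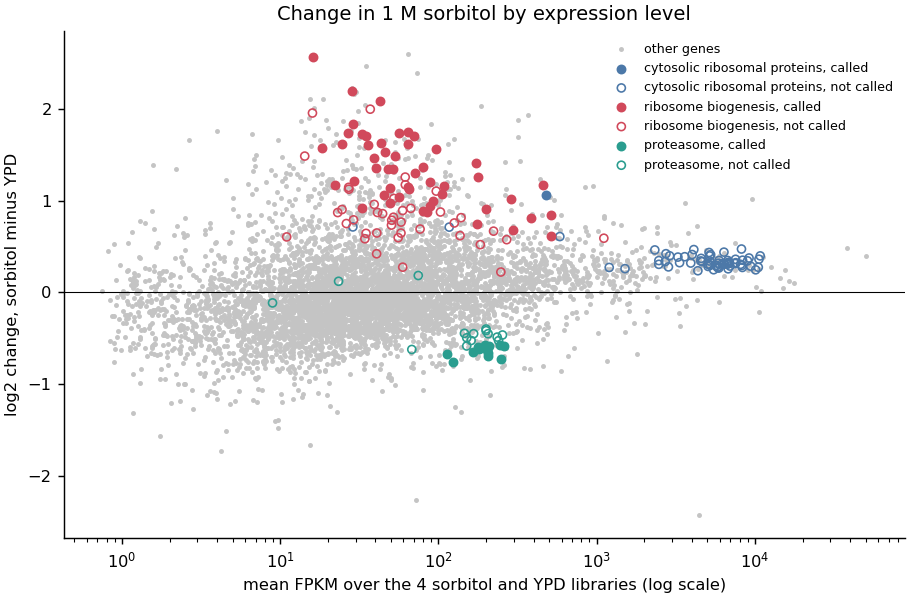
Log2 change of each of the 5683 genes (sorbitol minus YPD, vertical axis) against its mean FPKM over the 4 libraries (horizontal, log scale), with 3 gene lists in colour, filled where the gene was called. The 90 ribosome biogenesis genes lie between 0.22 and 2.57, the cytosolic ribosomal protein genes form a band at high FPKM near their median of 0.32, and most proteasome genes lie below 0 near their median of -0.58.

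Ribosome biogenesis genes, whose products process ribosomal RNA and assemble the subunits in the nucleolus, held more of the rises than any other list. Of 90 tested, 50 rose and 0 fell, against 3.91% of all genes. At a raw p below 0.05, 87 were higher, against 806 of the 5683 genes tested. The median log2 change was 1.03, with a range of 0.22 to 2.57, beside -0.03 for all genes. The list was higher than in YPD in the salts too, with 38 of 90 called higher and 0 lower in KCl (median 0.81). In NaCl 33 were higher and 5 lower (median 0.49). Of all 5683 genes, 371 were called higher and 267 lower in KCl, and 903 and 668 in NaCl. In 89 of the 90 (98.9%, against 27.0% of all genes) both sorbitol libraries lay above both YPD libraries, the exception being RRP42, an exosome subunit. BUD22, of small-subunit processing, stood at 4.11 and 2.77 FPKM in YPD and at 43.2 and 14.4 in sorbitol (log2 change 2.57 ± 0.51, adjusted p = 0.034). MAK16, of large-subunit assembly, stood at 7.65 and 9.79 against 69.5 and 26.7 (2.19 ± 0.49, adjusted p = 0.042). DIM1, which methylates the small-subunit rRNA, stood at 13.1 and 16.5 against 97.1 and 44.8 (2.09 ± 0.49, adjusted p = 0.048). In NaCl and KCl too, replicate 1 stood above replicate 2 in BUD22, MAK16 and DIM1. DIM1 was at 81.3 and 41.7 FPKM in NaCl and 85.8 and 35.5 in KCl. In these 3 genes both sorbitol libraries were above YPD, and sorbitol 1 was more than 2-fold higher than sorbitol 2 (BUD22, MAK16 and DIM1: YPD 1, YPD 2, sorbitol 1 or either NaCl library, up to 0.23).

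In the next largest rises of the list the sorbitol libraries were closer to each other. RRP9, part of the U3 snoRNP, was at 9.03 and 15.6 FPKM in YPD and 52.8 and 38.7 in sorbitol (1.84 ± 0.32, adjusted p = 0.026). RRP15, of large-subunit maturation, was at 20.6 and 29.1 against 109 and 65.3 (1.74 ± 0.26, adjusted p = 0.021). All sorbitol values of both genes were above those of YPD, and YPD 2 was above YPD 1. NIP7 and MPP10, of 60S and 18S rRNA maturation, rose by 1.75 ± 0.36 and 1.74 ± 0.33 log2 units, from 21.0 and 36.1 to 126 and 71.9 FPKM and from 8.08 and 15.8 to 53.9 and 30.1. SRP40, a nucleolar protein outside the list, rose from 3.39 and 7.48 to 25.8 and 17.6 FPKM (1.87 ± 0.38, adjusted p = 0.034). The calls were lost for RRP9 and RRP15 without YPD 1 or sorbitol 1 (up to 0.14), for NIP7 and MPP10 also without either NaCl library (up to 0.19), and for SRP40 without YPD 1, either sorbitol library or either NaCl library (up to 0.18).

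The list as a whole differed between replicates too. Relative to the YPD mean its median was -0.25 in YPD 1, 0.25 in YPD 2, 1.18 in sorbitol 1 and 0.86 in sorbitol 2. It was 0.63 in NaCl 1, 0.41 in NaCl 2, 0.93 in KCl 1 and 0.66 in KCl 2. Replicate 1 was thus the higher in every solute and the lower in YPD, and the reason was not tested. The 2 YPD libraries thus differed by 0.5 log2 units at the median of these genes, against 0.03 at the median of all genes, and the smallest gap between a sorbitol and a YPD library was from 0.25 to 0.86. Without YPD 1 or sorbitol 1, 0 of the 90 genes were called, against 33 without sorbitol 2, 47 without YPD 2 or either KCl library, and 9 without either NaCl library. With only the 4 libraries 1 was called, and 27 with no trend in the prior variance. What set the 2 controls apart was not tested.

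Genes for the parts of the ribosome itself changed less than those for its assembly. Of 67 cytosolic ribosomal protein genes, 1 rose and 0 fell, against 3.91% and 1.23% of all genes, with 31 higher at a raw p below 0.05. The median change was 0.32 within a narrow range of 0.24 to 1.06. It was 0.33 under median ratio scaling and 0.03 under quantile normalization. Quantile normalization gives every library the same set of values, so it can remove a joint shift of abundant genes. Whether it did so here was not tested. RPS42 was the gene called, at 296 and 324 FPKM in YPD against 663 and 633 in sorbitol (1.06 ± 0.13, adjusted p = 0.011, lost without YPD 1 or sorbitol 1, up to 0.11). Its sorbitol libraries were close to each other and well above YPD. In 66 of the 67 genes the libraries of the 2 media did not overlap, against 27.0% of all genes above YPD in this way, RPL38 being the exception. Of 47 translation factor and tRNA synthetase genes 1 rose, TIF4631 (eIF4G, the scaffold of the cap-binding complex), from 161 and 171 to 259 and 272 FPKM (0.67 ± 0.12, adjusted p = 0.030, lost without any YPD, sorbitol or NaCl library, up to 0.15). That 1 rise among 47 genes stood beside 3.91% of all genes. The median of that list was 0.32, with 0.33 under median ratio scaling and 0.11 under quantile normalization. Among 18 mitochondrial ribosomal protein genes 0 were called and 9 were higher at a raw p below 0.05, with a median of 0.47.

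Proteasome genes moved the other way. Of 28 tested, 13 fell and 0 rose, against 1.23% of all genes that fell, and 25 were lower at a raw p below 0.05. The median was -0.58, with -0.04 and 0.04 in the YPD libraries against -0.59 and -0.53 in the sorbitol libraries, so replicates were closer here than in ribosome biogenesis. In 25 of the 28 (89.3%, against 29.4% of all genes) both sorbitol libraries lay below both YPD libraries. The list was lower than in YPD in the salts too, with 23 of 28 called in KCl (median -0.68) and 13 in NaCl (median -0.38). Of all 5683 genes, 267 were called lower in KCl and 668 in NaCl. RPN6, a lid subunit of the regulatory particle, was at 155 and 157 FPKM in YPD and 88.7 and 94.2 in sorbitol (-0.76 ± 0.12, adjusted p = 0.024). PRE3, the subunit with caspase-like activity in the catalytic core, was at 304 and 315 against 184 and 190 (-0.72 ± 0.12, adjusted p = 0.024). In each, the 2 libraries of a medium were nearly equal and the media were well apart.

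Core and regulatory particle genes were found among these falls alike. The core subunit genes PUP3 (248 and 263 FPKM in YPD, 152 and 162 in sorbitol) and PRE8 (249 and 253, then 156 and 161) fell by 0.70 ± 0.13 and 0.66 ± 0.12 log2 units, and RPN3 of the lid (130 and 152, then 82.9 and 92.9) by 0.67 ± 0.14. CDC48, the AAA ATPase that unfolds ubiquitylated proteins and is not a proteasome subunit, fell from 260 and 294 to 140 and 165 FPKM (-0.86 ± 0.16, adjusted p = 0.031). RPN4, which encodes the activator of proteasome genes in S. cerevisiae, was not called (0.18 ± 0.17, adjusted p = 0.54). The calls of RPN6 and CDC48 were lost without YPD 1, YPD 2 or sorbitol 1 (up to 0.14), that of PRE3 also without sorbitol 2 (up to 0.13), and those of PUP3, PRE8 and RPN3 without any YPD, sorbitol or NaCl library (up to 0.17; RPN3 also without either KCl library). Without YPD 1, YPD 2 or sorbitol 1, 0 proteasome genes were called, 1 without sorbitol 2, 2 without either NaCl library, 0 with only the 4 libraries, 4 with no trend and 21 under quantile normalization.

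Chaperone genes were not called in sorbitol, and their estimates went both ways, with 8 of 23 above 0. Of 23 heat shock and chaperone genes 0 were called by limma, with 1 higher and 7 lower at a raw p below 0.05, and the median was -0.18. HSP90, the abundant cytosolic chaperone, stood at 1127 and 1839 FPKM in YPD and at 764 and 954 in sorbitol (-0.75 ± 0.23, adjusted p = 0.097). The groups did not overlap, but YPD 2 stood farther above YPD 1 than YPD 1 stood above sorbitol 2. Relative to the YPD mean the list's median was -0.22 in YPD 1, 0.22 in YPD 2, -0.31 in sorbitol 1 and -0.17 in sorbitol 2, so sorbitol 2 lay between the controls. The lowest estimate of the list was -2.27, without a call. In quantile normalization 3 members were lower, and 1 was lower with a pseudocount of 5 FPKM, a filter at 5 FPKM or median ratio scaling.

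**Figure D2:**
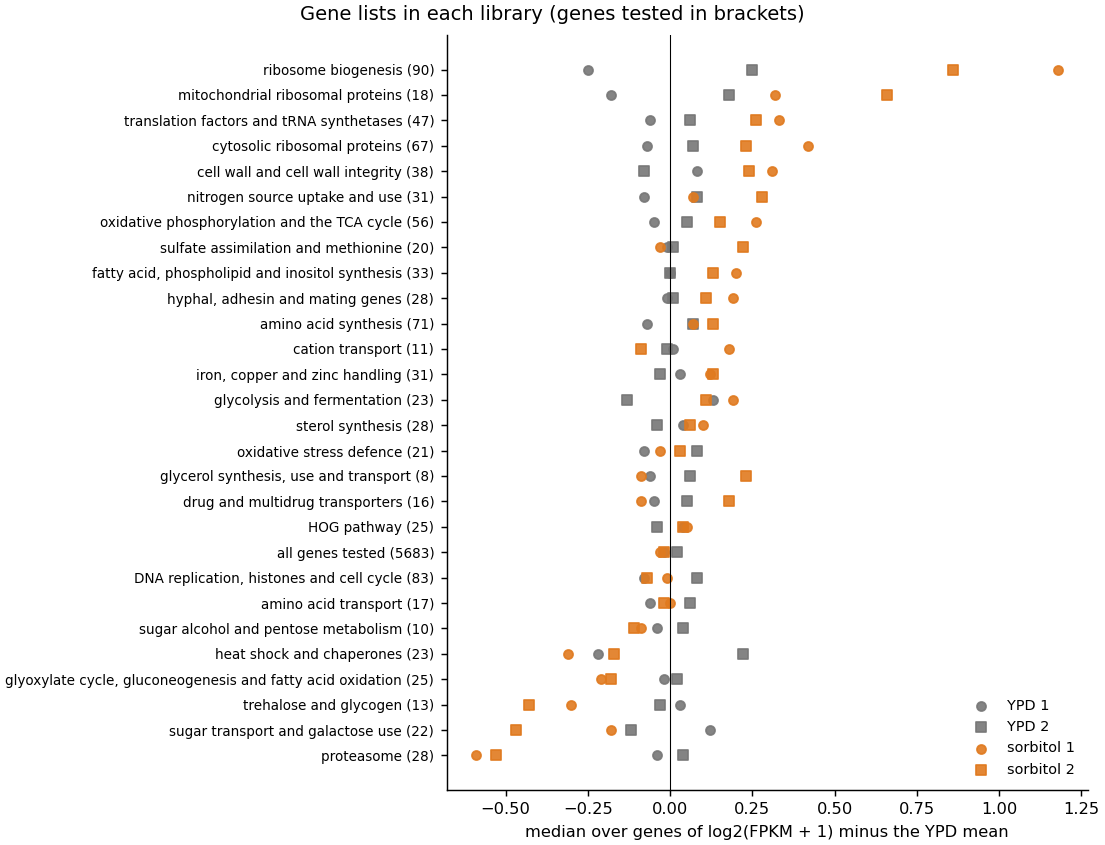
Median over the tested genes of each list of log2(FPKM + 1) minus the mean of the YPD libraries (horizontal axis), for YPD 1 and 2 (grey) and sorbitol 1 and 2 (orange), with circles for replicate 1 and squares for replicate 2. Ribosome biogenesis lies highest at 1.18 and 0.86 in sorbitol and the proteasome lowest at -0.59 and -0.53, and all genes tested lie at -0.03 and -0.02.

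The genes best known from osmotic responses were not among those called. Of 8 genes of glycerol synthesis, use and transport 0 were called, with 1 higher and 2 lower at a raw p below 0.05, and the median was 0.01 (-0.14 under quantile normalization). GPD1, the glycerol-3-phosphate dehydrogenase that commits a glycolytic intermediate to glycerol, stood at 1202 and 1301 FPKM in YPD and at 1385 and 1728 in sorbitol (0.31 ± 0.14, 95% confidence interval -0.01 to 0.62, adjusted p = 0.21). RHR2, the phosphatase of the next step, stood at 1520 and 1493 against 1987 and 3013 (0.70 ± 0.19, interval 0.27 to 1.13, adjusted p = 0.069). Both sorbitol libraries were above both YPD libraries for the 2 genes, with sorbitol 2 above sorbitol 1. GPD2, the other dehydrogenase gene, overlapped between the media at 380 and 494 FPKM against 238 and 518 (-0.30 ± 0.54, interval -1.53 to 0.93, adjusted p = 0.75). Its estimate turned to 0.26 without sorbitol 1. GUT1, the glycerol kinase of glycerol use, was at 131 and 117 FPKM in YPD and 105 and 90.3 in sorbitol (-0.34 ± 0.14, adjusted p = 0.17).

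Of 10 genes of sugar alcohol and pentose metabolism 0 were called, with 1 higher and 0 lower at a raw p below 0.05 and a median of -0.12. XYL2, a xylitol dehydrogenase of the family that also oxidises sorbitol in several yeasts, was at 152 and 161 FPKM in YPD and at 209 and 237 in sorbitol (0.51 ± 0.13, interval 0.21 to 0.81, adjusted p = 0.060), with no overlap. GRE3, an aldose reductase, was at 89.7 and 94.4 against 66.1 and 84.3 (-0.30 ± 0.19, adjusted p = 0.35). In the HOG pathway 0 of 25 genes were called and 1 was higher at a raw p below 0.05, with a median of -0.01. HOG1, the kinase itself, stood at 124 and 132 FPKM in YPD and at 118 and 126 in sorbitol, which overlap (-0.07 ± 0.13, interval -0.37 to 0.22, adjusted p = 0.75). Transcript levels carry no measure of the phosphorylation through which this cascade works.

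Trehalose and glycogen genes had a median of -0.36, with 0 of 13 called by limma and 0 higher and 5 lower at a raw p below 0.05. In 8 of the 13 both sorbitol libraries were below both YPD libraries, against 29.4% of all genes. TPS1, trehalose-6-phosphate synthase, was at 299 and 324 FPKM in YPD and 307 and 325 in sorbitol, nearly equal (0.02 ± 0.13, interval -0.28 to 0.32, adjusted p = 0.93, with an estimate of -0.13 under quantile normalization). TPS2, the phosphatase that follows it, was at 391 and 394 against 454 and 514 (0.30 ± 0.13, adjusted p = 0.21). The 4 lowest estimates of the list, named here after their values were seen, were those of GLG2 (-0.88), GPH1 (-0.87), GSY1 (-0.84) and ATC1 (-0.81), none of them called. GLG2 primes glycogen, GSY1 is glycogen synthase, GPH1 is glycogen phosphorylase and ATC1 is an acid trehalase of C. albicans, so genes of synthesis and of breakdown were both among them.

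**Figure D3:**
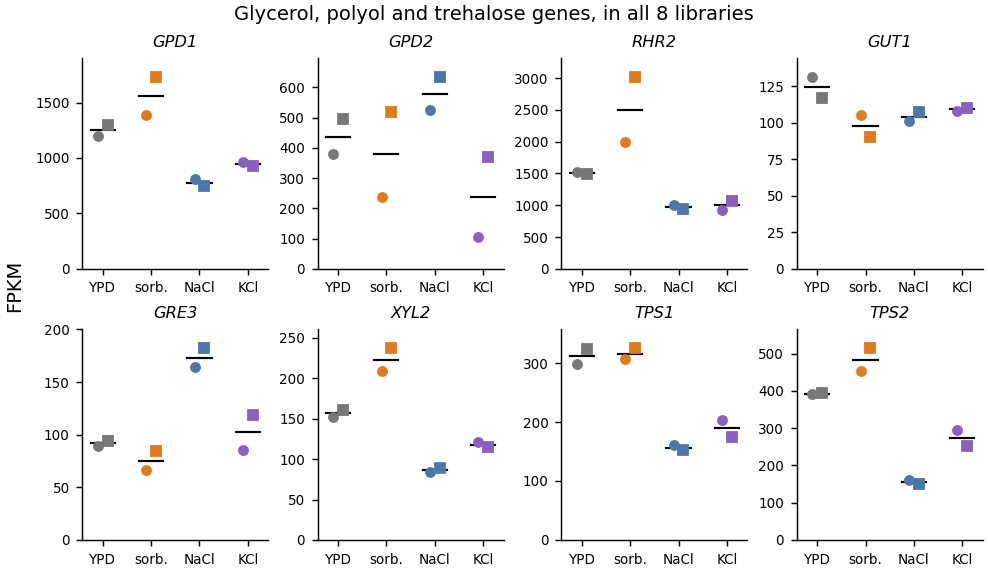
FPKM (vertical axes, each from 0) of 8 glycerol, polyol and trehalose genes in the 2 libraries of each medium, circles for replicate 1 and squares for replicate 2, with the mean as a bar. GPD1, RHR2, XYL2 and TPS2 have both sorbitol libraries above both YPD libraries and above all salt libraries, without a call against YPD, while GPD2 varies widely between replicates (238 and 518 in sorbitol).

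Genes of the cell surface and of membrane lipids held some of the best separated rises. PGA18, a putative GPI-anchored surface protein, was at 22.3 and 13.6 FPKM in YPD and at 110 and 111 in sorbitol, a 6.16-fold higher mean (2.6 ± 0.21, adjusted p = 0.0023). It was the largest rise among genes with a symbol, and it was called without each of the 8 libraries in turn (adjusted p up to 0.023). Of 38 cell wall and cell wall integrity genes 3 rose and 0 fell, against 3.91% and 1.23% of all genes, with 16 higher and 2 lower at a raw p below 0.05 and a median of 0.27. These were PGA4, a glucan-modifying GPI protein (336 and 305 FPKM in YPD, 493 and 668 in sorbitol, 0.84 ± 0.16), PIR1, a wall structural protein (1066 and 827, then 1664 and 1505, 0.75 ± 0.16), and SIM1, of the SUN family (584 and 695, then 1077 and 1018, 0.72 ± 0.16). In all 3 the sorbitol libraries lay above the YPD libraries, and the calls were lost without any YPD, sorbitol or NaCl library (up to 0.23) and under quantile normalization, which left 0 of the 38. DIT1, which in S. cerevisiae makes the dityrosine of the spore wall, rose from 1.98 and 3.21 to 9.89 and 11.5 FPKM (1.72 ± 0.26, adjusted p = 0.021, lost without YPD 1 or sorbitol 1, up to 0.13).

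INO1 and ITR1, of the synthesis and uptake of inositol, rose. Inositol is the head group of phosphatidylinositol and of sphingolipids. INO1, which makes inositol phosphate from glucose 6-phosphate, was at 5.33 and 4.57 FPKM in YPD and at 13.5 and 17.7 in sorbitol (1.47 ± 0.22, adjusted p = 0.021, lost without YPD 1 or sorbitol 1, up to 0.13). ITR1, a plasma membrane inositol transporter, was at 22 and 21.5 against 46.8 and 43.4 (1.02 ± 0.20, adjusted p = 0.031, lost without any YPD, sorbitol or NaCl library, up to 0.15). The sorbitol libraries of both genes lay well above the YPD libraries. They were the 2 rises among 33 genes of fatty acid, phospholipid and inositol synthesis (against 3.91% of all genes; 0 fell, with 8 higher and 2 lower at a raw p below 0.05, median 0.15). OPI3 and CHO2, which methylate phosphatidylethanolamine to phosphatidylcholine and were named after their values were seen, had the lowest estimates of the list without a call (-1.17, adjusted p = 0.054, and -0.93, adjusted p = 0.072).

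Of 28 sterol synthesis genes 2 rose and 0 fell, against 3.91% and 1.23% of all genes, with 6 higher and 2 lower at a raw p below 0.05, and the median was 0.09 (-0.05 under quantile normalization, which left 0 called). ERG3, the sterol desaturase, was at 326 and 236 FPKM in YPD and at 526 and 477 in sorbitol (0.85 ± 0.17, adjusted p = 0.032). ERG1, squalene epoxidase, was at 815 and 757 against 1219 and 1288 (0.67 ± 0.12, adjusted p = 0.029). Neither gene overlapped between the media, and both calls were lost without any YPD, sorbitol or NaCl library (up to 0.14). UPC2, the activator of sterol genes, was not called (0.55 ± 0.14, adjusted p = 0.057). Of 11 cation transport genes 1 rose, PMA1, the proton pump of the plasma membrane, from 1442 and 1498 to 2153 and 2600 FPKM (0.69 ± 0.13, adjusted p = 0.031, lost without any YPD, sorbitol or NaCl library, up to 0.16). That 1 rise among 11 genes stood beside 3.91% of all genes. HAK1, a potassium transporter, was at 20.4 and 10.8 FPKM in YPD and 8.77 and 7.54 in sorbitol (-0.80 ± 0.27, adjusted p = 0.12), and was called without YPD 2.

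**Figure D4:**
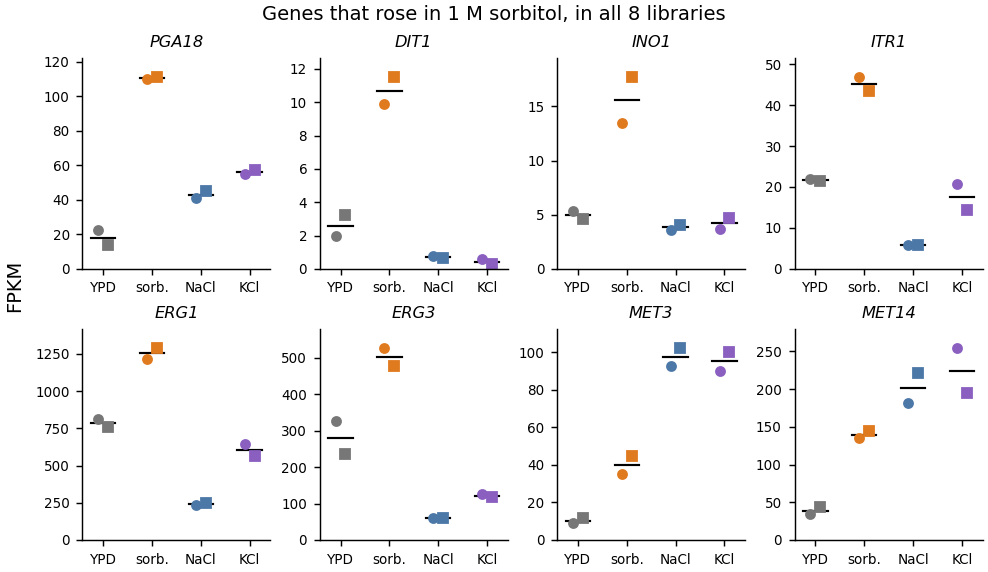
FPKM (vertical axes, each from 0) of 8 genes that rose in sorbitol, in the 2 libraries of each medium, circles for replicate 1 and squares for replicate 2, with the mean as a bar. PGA18, DIT1, INO1, ITR1, ERG1 and ERG3 are highest in the sorbitol libraries, while MET3 and MET14 stand higher in every salt library than in sorbitol.

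Among sulfate assimilation genes, the 2 that activate sulfate at the start of the pathway rose most. MET3, ATP sulfurylase, was at 8.88 and 11.7 FPKM in YPD and 35.2 and 44.8 in sorbitol (1.86 ± 0.19, adjusted p = 0.0050), and it was called without each of the 8 libraries in turn (up to 0.048). MET14, the kinase of the next step, was at 34.1 and 43.2 against 135 and 144 (1.83 ± 0.19, adjusted p = 0.0050, lost without YPD 1, at 0.057). MET10, a subunit of sulfite reductase, was at 42.1 and 36.9 against 71.8 and 69.7 (0.83 ± 0.14, adjusted p = 0.024, lost without any YPD or sorbitol library, up to 0.12). Replicates of these genes were close, and the media did not overlap. They were the 3 rises among 20 genes of sulfate assimilation and methionine (against 3.91% of all genes; 0 fell, median 0.17). MET6, methionine synthase, which stands at the end of the pathway, was at a log2 change of 0.00 (adjusted p = 0.99) and was named after its value was seen.

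Amino acid synthesis genes were mostly not called: 5 of 71 rose, against 3.91% of all genes, and 0 fell, with 15 higher and 6 lower at a raw p below 0.05 and a median of 0.14. ARG1, argininosuccinate synthase, rose from 23.6 and 36.0 to 67.2 and 81.5 FPKM (1.31 ± 0.25, adjusted p = 0.031). GLY1 (threonine aldolase) and ILV3 (branched-chain amino acids) rose by 0.75 ± 0.17 and 0.74 ± 0.16. All 3 were above YPD in both sorbitol libraries, and the calls of GLY1 and ILV3 were lost without any YPD, sorbitol or NaCl library (up to 0.24), that of ARG1 without any of these but YPD 2 (up to 0.16). Among 31 nitrogen source genes 2 rose, against the same 3.91%, MEP1 (ammonium permease, 48.5 and 41.6 FPKM in YPD, 91.5 and 89.8 in sorbitol, 1.00 ± 0.14) and DAL1 (allantoinase, 10.3 and 11.6, then 18.4 and 25.5, 0.93 ± 0.19). The amino acid permease gene GNP1 rose from 436 and 415 to 822 and 707 FPKM (0.84 ± 0.13, adjusted p = 0.021). It was the 1 call among 17 amino acid transport genes, against 3.91% of all genes that rose. MEP1 and GNP1 lost the call without YPD 1 or sorbitol 1 (up to 0.13) and DAL1 without any YPD, sorbitol or NaCl library (up to 0.18).

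Of 21 oxidative stress defence genes 4 rose and 0 fell, against 3.91% and 1.23% of all genes, with 4 higher and 3 lower at a raw p below 0.05, and the median of 0.05 turned to -0.16 under quantile normalization. AHP1, a thioredoxin peroxidase, rose from 3.06 and 3.87 to 9.45 and 8.70 FPKM (1.18 ± 0.16, adjusted p = 0.020) and DDR48, a stress protein of C. albicans, from 44.9 and 49.6 to 165 and 103 (1.44 ± 0.23, adjusted p = 0.021). MXR1, methionine sulfoxide reductase, rose by 1.25 ± 0.25 and OYE32, an NADPH oxidoreductase, by 0.75 ± 0.14. AHP1 and DDR48 lost the call without YPD 1 or sorbitol 1 (up to 0.13), and MXR1 and OYE32 also without sorbitol 2 or either NaCl library (up to 0.16).

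Of 31 genes of iron, copper and zinc handling 3 rose and 2 fell, against 3.91% and 1.23% of all genes. The rises were in reductive iron uptake. FRE10, a ferric reductase, went from 9.54 and 11 to 23.8 and 29.4 FPKM (1.29 ± 0.17, adjusted p = 0.016), FTR2, the iron permease, from 274 and 244 to 682 and 543 (1.23 ± 0.19, adjusted p = 0.021), and FET31, the multicopper ferroxidase, from 198 and 182 to 344 and 273 (0.69 ± 0.16, adjusted p = 0.049, the last of these named outside the rule for genes after its value was seen). HMX1, haem oxygenase, which releases iron from haem, fell from 258 and 144 FPKM to 79.0 and 75.6 (-1.31 ± 0.24, adjusted p = 0.030). CSR1, a zinc-responsive transcription factor of C. albicans, fell from 14.0 and 14.9 to 4.72 and 5.05 (-1.39 ± 0.24, adjusted p = 0.025), the largest called fall among genes with a symbol. None of the 5 overlapped between the media. The calls were lost without YPD 1 or sorbitol 1 for FRE10 (up to 0.12), also without YPD 2 for FTR2 (up to 0.13), without any YPD or sorbitol library for CSR1 (up to 0.13), without YPD 1, either sorbitol or either NaCl library for HMX1 (up to 0.13), and without any of the 8 libraries for FET31 (up to 0.20).

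Carbon metabolism showed no call in sorbitol. For comparison, 806 of the 5683 genes tested were higher and 630 lower at a raw p below 0.05. Of 23 glycolysis and fermentation genes 0 were called (2 higher and 0 lower at a raw p below 0.05), with a median of 0.12 that turned to -0.03 under quantile normalization. In oxidative phosphorylation and the TCA cycle 0 of 56 genes were called (7 higher and 0 lower unadjusted), with a median of 0.20 and 0.01 under quantile normalization. Among 22 sugar transport and galactose genes 0 were called (1 higher and 6 lower unadjusted), with a median of -0.39, and 10 of the 22 were below YPD in both sorbitol libraries, against 29.4% of all genes. GAL1, galactokinase, was at 60.1 and 37.0 FPKM in YPD and at 39.7 and 24 in sorbitol, which overlap (-0.59 ± 0.28, adjusted p = 0.22). Of 25 genes of the glyoxylate cycle, gluconeogenesis and fatty acid oxidation 0 were called (1 higher and 4 lower unadjusted), with a median of -0.23. Among 16 drug and multidrug transporter genes 0 were called (2 higher and 0 lower unadjusted), and the median was 0.01.

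In the list of DNA replication, histones and cell cycle, 83 genes were tested. Of these 1 rose and 1 fell, against 3.91% and 1.23% of all genes (5 were higher and 6 lower at a raw p below 0.05, median -0.04). HGC1, the cyclin-related gene that C. albicans needs for hyphae, rose from 3.68 and 3.16 to 11.7 and 9.33 FPKM (1.38 ± 0.22, adjusted p = 0.023), and CDC48 was the gene that fell. HGC1 and SAP7, a secreted aspartyl protease gene (11.1 and 12.2 FPKM in YPD, 25.9 and 26.9 in sorbitol, 1.12 ± 0.14, adjusted p = 0.014), were the 2 rises among 28 hyphal, adhesin and mating genes, against 3.91% of all genes. Both were above YPD in both sorbitol libraries, and the calls were lost without YPD 1 or sorbitol 1 (up to 0.13), for HGC1 also without YPD 2. Of the 27 lists in all, 11 held no called member, 13 held rises only, 1 held falls only and 2 held both.

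Falls outside the lists were few and modest among genes with a symbol. ARF1, a small GTPase of vesicle formation, fell from 127 and 91.6 to 56.3 and 46.4 FPKM (-1.06 ± 0.24, adjusted p = 0.042). ECM38, gamma-glutamyltransferase of glutathione breakdown, fell from 9.23 and 8.6 to 4.51 and 4.34 (-0.87 ± 0.18, adjusted p = 0.036). CSP37, a surface protein of C. albicans, fell from 817 and 711 to 426 and 413 (-0.86 ± 0.12, adjusted p = 0.021), and YDC1, a ceramidase, from 171 and 174 to 108 and 99.2 (-0.73 ± 0.13, adjusted p = 0.027). The groups did not overlap in any of the 4. The calls were lost without YPD 1 or sorbitol 1 for CSP37 (up to 0.13), without any YPD, sorbitol or NaCl library for ECM38 and YDC1 (up to 0.19), and without any library but YPD 2 for ARF1 (up to 0.23).

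Most falls were in genes without a symbol: 20 of the 70 falls had one, against 120 of the 222 rises and 2321 of the 5683 genes tested. The largest fall of all was in HYPBUDRAFT_95311, which was named after its values were seen. It stood at 5165 and 9957 FPKM in YPD and at 1242 and 1427 in sorbitol, a 5.67-fold lower mean (-2.43 ± 0.26, adjusted p = 0.0068, lost without sorbitol 1, at 0.065), which placed it among abundant transcripts in both media. HYPBUDRAFT_154124 fell from 30.5 and 17.8 to 6.36 and 7.01 FPKM (-1.67 ± 0.28, adjusted p = 0.024). The largest rises without a symbol were in HYPBUDRAFT_149727 (21.9 and 17.1 FPKM in YPD, 195 and 57.4 in sorbitol, 2.4 ± 0.51, adjusted p = 0.038) and HYPBUDRAFT_151801 (8.07 and 8.94, then 71.3 and 26.2, 2.22 ± 0.43, adjusted p = 0.031). In these 2 rises sorbitol 1 was again more than 2-fold above sorbitol 2, as in BUD22 and MAK16. The calls were lost without YPD 1 or sorbitol 1 for HYPBUDRAFT_154124 (up to 0.13), and without YPD 1, YPD 2, sorbitol 1 or either NaCl library for the 2 rises (up to 0.16).

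Sorbitol was also set directly against each salt, a contrast whose estimates do not use the YPD values but whose variance comes from all 8 libraries. Against NaCl, 30.4% of the genes tested were called, 789 (13.9%) higher in sorbitol and 938 (16.5%) lower. Against KCl it was 6.16%, with 147 (2.59%) higher and 203 (3.57%) lower, so the sorbitol libraries differed from KCl in far fewer genes than from NaCl. Against KCl there were 28 higher and 34 lower without sorbitol 2, 30 and 34 without KCl 2, 65 and 73 without sorbitol 1, 76 and 84 without KCl 1, 91 and 132 or 133 without a NaCl library, and 109 or 110 and 147 without a YPD library. Against NaCl there were 399 and 559 without NaCl 1, 461 and 568 without NaCl 2, and 466 higher without sorbitol 1. Of the 222 genes that rose over YPD, 125 were called against neither salt, 59 were higher and 28 lower in sorbitol than in NaCl, and 24 were higher and 10 lower than in KCl. Of the 70 that fell, 32 were called against neither, 34 were lower and 4 higher than in NaCl, and 5 were lower and 0 higher than in KCl. The 222 and the 70 were picked by the same sorbitol libraries, so their calls against the salts are not independent of that choice. No call against a salt does not show that the levels were the same.

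Few ribosome biogenesis genes and 0 of the 28 proteasome genes (median 0.11) were called between sorbitol and KCl. Of all genes tested, 13.9% were higher and 16.5% lower in sorbitol than in NaCl, and 2.59% and 3.57% than in KCl. Of the 90 ribosome biogenesis genes, SIK1, a core protein of the box C/D snoRNP, was higher in sorbitol and 0 were lower (median 0.21). Against NaCl 25 were higher and 0 lower (median 0.51). The 25 became 15 without NaCl 1, 9 without NaCl 2 and 12 without sorbitol 1. Of the 67 cytosolic ribosomal protein genes 38 were higher in sorbitol than in NaCl (median 0.48), but under quantile normalization 3 were higher and 8 lower (median -0.09), and the 38 became 3 without NaCl 1, 13 without NaCl 2, 6 without sorbitol 1, 17 without sorbitol 2 and 22 without either YPD library. Of the 28 proteasome genes 1 was lower than in NaCl, and 0 without any sorbitol or NaCl library. Of 23 glycolysis and fermentation genes 14 were higher and 3 lower in sorbitol than in NaCl (median 1.21), and 7 higher and 0 lower than in KCl (median 0.54), the 7 becoming 0 without sorbitol 2 or KCl 2, 2 without sorbitol 1 and 3 without either NaCl library. Among 71 amino acid synthesis genes 7 were higher and 46 lower than in NaCl (median -0.97).

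Of the genes that rose over YPD, 15 were also higher in sorbitol than in both salts, 7 of them with a symbol: PGA18, DIT1, INO1, ITR1, ERG1, ERG3 and SIK1. These genes were picked for high values in the same sorbitol libraries, so their calls against the salts are not independent support. Of all genes tested, 13.9% were higher in sorbitol than in NaCl and 2.59% than in KCl. The share higher than both was not worked out. PGA18 stood at 40.8 and 44.9 FPKM in NaCl and 54.8 and 57.4 in KCl, between YPD and sorbitol (sorbitol minus NaCl 1.35, adjusted p = 0.0022, and minus KCl 0.97, adjusted p = 0.037). DIT1 was below 1 FPKM in all 4 salt libraries (differences of 2.76 and 3.03, adjusted p = 0.00013 and 0.00065), and INO1 was at 3.60 to 4.67 FPKM in them (1.77 and 1.67, adjusted p = 0.00058 and 0.0064). ITR1 stood at 5.71 and 5.76 FPKM in NaCl and 20.8 and 14.4 in KCl (2.78 and 1.33, adjusted p = 2.9e-05 and 0.010). Of these 4 genes PGA18 alone had every salt library above both YPD libraries. INO1 overlapped between KCl and YPD, with KCl 2 at 4.67 FPKM and YPD 2 at 4.57. The differences from NaCl were called without each of the 8 libraries. Against KCl, that of PGA18 was lost without any sorbitol, NaCl or KCl library (up to 0.15), that of SIK1 likewise (up to 0.14), and that of ITR1 without sorbitol 2 or KCl 2 (up to 0.054).

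Sterol genes were the list with the most uniform difference from the salts: 22 of 28 were higher and 0 lower in sorbitol than in NaCl (median 0.78), and 9 higher and 0 lower than in KCl (median 0.45; 5 without sorbitol 2 or KCl 2). The shares of all genes higher in sorbitol were 13.9% against NaCl and 2.59% against KCl. Set against YPD, 22 of the 28 were lower in NaCl (median -0.75) and 8 in KCl (median -0.37), while the median in sorbitol was 0.09. Of all 5683 genes, 668 were lower than YPD in NaCl and 267 in KCl. ERG1 and ERG3 were the 2 members that rose over YPD in sorbitol. ERG1 was at 237 and 247 FPKM in NaCl and 646 and 562 in KCl, and ERG3 at 60.1 and 59.0 and at 125 and 117. Their differences from NaCl were 2.37 (adjusted p = 8.1e-06) and 3.05 (adjusted p = 8.4e-06), and those from KCl 1.06 (adjusted p = 0.0036) and 2.04 (adjusted p = 0.00060). Both genes ran in the order NaCl, KCl, YPD, sorbitol from lowest to highest, and no library of one medium overlapped with the next.

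Of the 8 glycerol genes, none called against YPD, 2 were higher and 1 lower in sorbitol than in NaCl (median -0.16). Against KCl 2 were higher and 0 lower (median 0.18). Of all genes tested, 13.9% were higher and 16.5% lower than in NaCl, and 2.59% and 3.57% than in KCl. The 2 higher genes were GPD1 and RHR2 against each salt. GPD1 was at 806 and 748 FPKM in NaCl and 964 and 930 in KCl, below both YPD libraries, and was higher in sorbitol by 0.99 (adjusted p = 0.0011) and 0.71 (adjusted p = 0.024). RHR2 was at 1009 and 945 in NaCl and 929 and 1066 in KCl, and was higher in sorbitol by 1.32 (adjusted p = 0.0012) and 1.30 (adjusted p = 0.010). GPD2 was called against neither salt (adjusted p = 0.35 and 0.43). XYL2 was higher by 1.35 (adjusted p = 0.00016) and 0.91 (adjusted p = 0.0098). For GPD1, RHR2 and XYL2 every sorbitol library was above every other library. TPS1 and TPS2 were higher than in NaCl by 1.01 and 1.63 and than in KCl by 0.74 and 0.83 (adjusted p of 0.00077, 6.8e-05, 0.018 and 0.013). Of the 13 trehalose and glycogen genes 3 were higher and 5 lower than in NaCl (median -0.84), and 2 higher and 0 lower than in KCl (median -0.23). Against KCl the calls were lost without sorbitol 2 or KCl 2 for XYL2 and TPS2 (up to 0.088), also without KCl 1 for GPD1 (up to 0.15) and also without sorbitol 1 for TPS1 (up to 0.11). HSP90 was at 268 and 237 FPKM in NaCl and 549 and 443 in KCl, and was higher in sorbitol than in NaCl by 1.76 (adjusted p = 0.00089) but not called against KCl (0.79, adjusted p = 0.093, and 0.048 without either YPD library).

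Other genes that rose in sorbitol stood far higher in the salts. AHP1 was at 9.45 and 8.70 FPKM in sorbitol, against 289 and 302 in NaCl and 72.0 and 81.0 in KCl (differences of -4.88, adjusted p = 1.2e-06, and -2.94, adjusted p = 8.4e-05). SAP7 was lower in sorbitol than in NaCl by 3.61 and than in KCl by 1.54 log2 units (adjusted p = 2.0e-06 and 0.00095). MET3 was at 92.7 and 102 FPKM in NaCl and 90.1 and 100 in KCl (differences of -1.27, adjusted p = 0.0014, and -1.24, adjusted p = 0.011, the latter lost without KCl 2, at 0.070), and DDR48 differed by -1.74 and -1.58 (adjusted p = 0.00077 and 0.0098). For these 4 genes sorbitol lay between YPD and the salts, with no overlap between sorbitol and any other medium. HAK1 was at 62.5 and 58.1 FPKM in NaCl and 4.26 and 3.75 in KCl, so that sorbitol was lower than NaCl by 2.75 log2 units (adjusted p = 0.00017) and was not called against KCl (0.87, adjusted p = 0.10, and up to 0.045 without either YPD library).

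**Figure D5:**
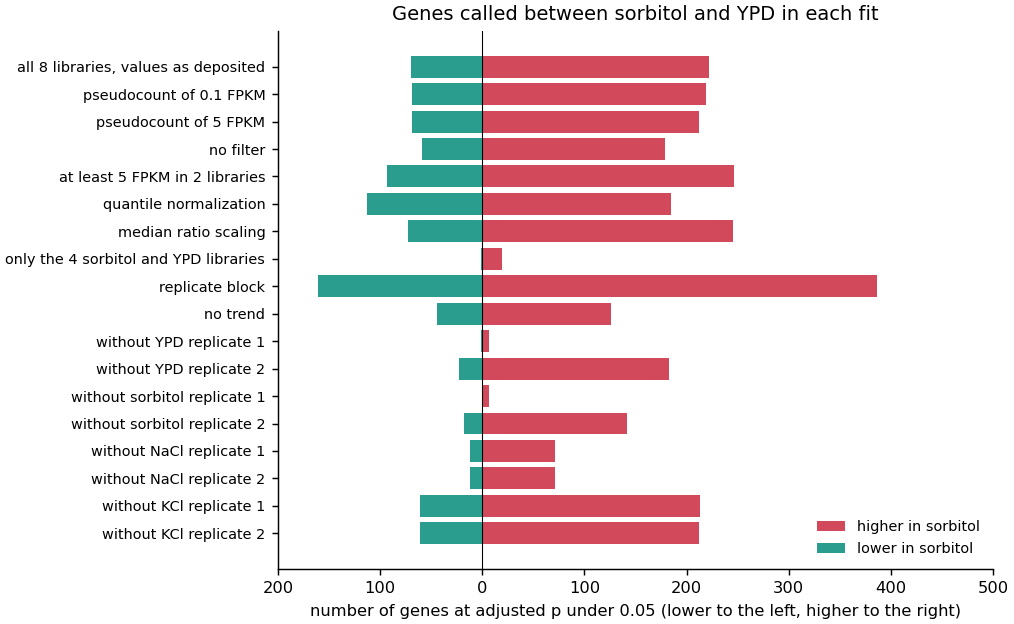
Number of genes called at an adjusted p under 0.05 between sorbitol and YPD in each fit, higher in sorbitol to the right (red) and lower to the left (green). The fit on all 8 libraries calls 222 and 70, that without YPD 1 calls 7 and 1, that without sorbitol 1 calls 7 and 0, and that on only the 4 sorbitol and YPD libraries calls 19 and 1.

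How far a call holds differed between genes. With only the 4 sorbitol and YPD libraries in the model, 19 of the 292 genes were called, as the variance then rests on 2 pairs. In every fit that left out 1 library 6 genes were called: PGA18, MET3 and 4 genes without a symbol. The genes that lost their call without YPD 1 or sorbitol 1 kept the direction of their estimate, which followed from their libraries not overlapping. Each such fit assumes that the lone library of a medium varies as the other media do.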

How the data were processed

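RNA sequencing values came from 8 libraries of 1 yeast strain, 2 in each of 4 media, and the labels placed every library in its group. Per the submitters' processing notes the authors used TopHat and Cufflinks, with no version stated. The deposited files name no unit. Their values were read as FPKM calculated by the authors, because they are not whole, differ in their sums between libraries and, at the low end, fall on steps set by gene length. No source used here states the genome build, the annotation, the strand setting or how reads shared by similar genes were treated, so overlapping genes and close copies, such as ribosomal protein paralogs, are uncertain, and no genome position is given. Depth in fragments is unknown apart from the estimated steps, and no interval was drawn from it. Gene names were taken from RefSeq's Hypbu1 assembly (strain NRRL Y-1933): 6157 of 6166 genes matched by locus tag, 9 were listed by symbol, and 2355 had a symbol.

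From there, a 4-group model of log2(FPKM + 1) over 8 libraries was fitted in R 4.3.3 by limma 3.58.1, whose prior variance followed the mean level (4 residual degrees of freedom, 8.45 with the prior). Log2 changes are on this scale, which understates changes near 1 FPKM, and are given ± their standard error. No scaling was added to the deposited values. The fit was tested on simulated data. The members, the 27 gene lists and the naming rule were chosen with earlier results of these data known. The rule named 65 genes: the 12 largest rises and falls with a symbol, up to 4 called genes per list, a set of osmotic and stress genes whatever their result, of which STL1 and HGT1 were not matched, and, added after their values were seen, 4 genes without a symbol. Of the 65, 1 gene is not reported here. Others named were chosen after their values were seen, among them RRP42, RPL38, RPN4, GUT1, UPC2 and SIK1. With 2 libraries against 2, an exact permutation test cannot reach the threshold and was not run. Alternatives were other pseudocounts (0.1 and 5 FPKM), no filter or a filter at 5 FPKM, quantile normalization, median ratio scaling, only the 4 libraries, a replicate block, no trend, and each library left out.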

Additional observations from a re-analysis of the deposited data

How the results depend on the processing

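Between sorbitol and YPD, pseudocounts of 0.1 and 5 FPKM, no filter, a filter at 5 FPKM and median ratio scaling gave 179 to 246 higher and 59 to 93 lower. Quantile normalization gave 185 higher and 113 lower. Only the 4 libraries gave 19 higher and 1 lower, and no trend 126 and 44. Leaving out 1 library gave 7 to 213 higher and 0 to 61 lower. Against NaCl this range was 399 to 778 higher and 559 to 941 lower, and against KCl 28 to 110 higher and 34 to 147 lower. The cause of these differences was not tested, except that fewer libraries leave fewer degrees of freedom. Of the 65 named genes, 13 to 63 kept direction and side of the threshold when 1 library was left out. With 1 library left out, the estimate of GPD2 ran from -0.86 to 0.26 (without sorbitol 1) and that of TPS1 from -0.04 (without YPD 1) to 0.08, with -0.02 without sorbitol 2. TPS1 was at -0.13 under quantile normalization. Other settings ended some calls against YPD: DIM1 and MAK16 with no filter (up to 0.06) and a pseudocount of 5 FPKM (up to 0.055), ARF1 and GLY1 with no filter (0.052 and 0.053), and DIM1, ECM38, ERG1, ERG3, GLY1, PGA4, PIR1, PMA1 and SIM1 under quantile normalization (0.06 to 0.1). Against KCl, SIK1 lost its call under quantile normalization (0.093) and with no trend (0.058), and GPD1 under quantile normalization (0.1). With no trend, ARF1, DIM1, ERG1, ERG3, GLY1, ILV3, MAK16, MXR1, NIP7, PGA4, PIR1, PMA1, RPN3, SIM1 and HYPBUDRAFT_149727 lost their call against YPD (up to 0.071).

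The replicate numbers were not taken to pair the libraries, since the labels name no culture, batch or day that libraries of the same number shared. Across genes, their deviations from the group means correlated at -0.01 (YPD and NaCl) to 0.49 (sorbitol and KCl), and at 0.35 for YPD and sorbitol. Whether a number marks a shared batch was not tested. With a replicate block, 386 genes were higher and 161 lower than in YPD, 936 and 1065 against NaCl, and 220 and 312 against KCl. RHR2 and XYL2 were then called against YPD (adjusted p = 0.042 and 0.045).

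Genes near 1 FPKM rest on few fragments, sorbitol 1 is the shallowest of the 4 libraries, and 3362 genes tested have no symbol.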

Other observations

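Among genes with a symbol, 40 rises and 4 falls lay outside every list, and the genes in these paragraphs were chosen from them after their values were seen, with no list of their kind tested. RPC19 and RPC40, shared by RNA polymerases I and III in S. cerevisiae, stood at 24.5 and 32.5 FPKM in YPD against 106 and 80.9 in sorbitol (log2 change 1.68 ± 0.24, limma adjusted p = 0.020) and at 82.8 and 118 against 223 and 189 (1.05 ± 0.21, adjusted p = 0.034). RPC31 of RNA polymerase III rose by 1.03 ± 0.19, and RPC10 and RPO26, found in all 3 nuclear polymerases, by 0.70 ± 0.16 and 0.65 ± 0.15. RPO41, the mitochondrial RNA polymerase, rose from 3.23 and 5.20 to 16.0 and 14.4 FPKM (1.66 ± 0.25, adjusted p = 0.021). FHL1, a regulator of ribosomal protein genes in S. cerevisiae, rose from 5.37 and 6.95 to 20.1 and 13.4 (1.29 ± 0.24, adjusted p = 0.031). Sorbitol lay above YPD in both libraries for each. The calls of RPC19 and RPO41 were lost without YPD 1 or sorbitol 1 (up to 0.13) and that of FHL1 also without either NaCl library (up to 0.17). Those of RPC40 and RPC31 were lost without any YPD, sorbitol or NaCl library but YPD 2 (up to 0.18), that of RPC10 without any library but YPD 2 (up to 0.23), and that of RPO26 without any library (up to 0.24).

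Among the same rises, PGA34, a putative GPI-anchored protein, went from 93.2 and 74.0 to 204 and 190 FPKM (1.24 ± 0.17, adjusted p = 0.019), and YWP1, a wall protein of yeast-form cells, from 7.23 and 6.86 to 18.6 and 18.7 (1.29 ± 0.20, adjusted p = 0.023). YWP1 was lower in sorbitol than in NaCl by 2.43 log2 units (adjusted p = 7.6e-05). Both calls against YPD were lost without YPD 1 or sorbitol 1 (up to 0.13), that of YWP1 also without YPD 2.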
